A study of Mus musculus with 6 samples.

Results

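The members described here are 10 transcription factor genes of endothelium and endocardium: the SoxF genes Sox7, Sox17 and Sox18, the ETS genes Erg, Fli1, Ets1 and Ets2, and Tal1, Nfatc1 and Klf2. They were taken as every probe set whose platform annotation names only that gene, which gave 23 of the 45101 probe sets on the array, and 10 of the 18193 genes that can be named. All 10 had at least 1 such probe set. Total RNA of sorted mouse embryo cells at embryonic day 9.0 was measured on 6 Affymetrix arrays, 3 mutant and 3 wild-type. All cells were YFP-positive, sorted from the Isl1-cre domain, which marks precardiac mesoderm. Mutant embryos carried Isl1-cre, Rosa-YFP and the Beta-catenin (loxP ex3) allele, from which Cre recombination yields a stabilised Beta-catenin. Controls are labelled wild type; beyond the YFP sort, no further allele is listed for them. Cre acts wherever the Isl1 driver has been on, so any Isl1-lineage cell type can be in the sort, and the number of embryos behind an array is not given. The design text speaks of independent experiments, but no label ties an array to a litter, so the p-values cover only the scatter of these arrays, part of which may be technical.

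SoxF proteins bind DNA through an HMG box and act together in the growth of blood and lymph vessels, and ETS factors bind a short GGAA core that is common in the enhancers of endothelial genes. In the embryo the endocardium, the inner lining of the heart, is a specialised endothelium. Tal1 is a basic helix-loop-helix factor of early blood and endocardium, Nfatc1 is a calcium-regulated factor of endocardium and valves, and Klf2 is a zinc finger factor that responds to blood flow.

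The Y-linked genes were uneven. Their mean was 8.09 to 9.12 on the mutant arrays, against 9.08, 3.33 and 3.43 on wild-type arrays 1, 2 and 3. Arrays correlated at 0.983 to 0.985 within mutant, 0.983 to 0.987 within wild type and 0.977 to 0.985 between them. Ctnnb1 read 12.97 ± 0.04 in mutant and 12.98 ± 0.03 in wild-type cells (log2, SD, n = 3 each), and it is not known here whether its probe sets cover the deleted exon. The Wnt target Axin2 read 10.44 to 10.94 on mutant against 9.82 to 10.02 on wild-type arrays, and Isl1 read 7.49 to 8.72 on mutant against 9.24 to 9.77 on wild-type arrays. Neither Axin2 (adjusted p = 0.208) nor Isl1 (adjusted p = 0.269) passed the limma test over all genes. Of 11 cardiac progenitor markers 1 had a mean at or below background, so most of the list was detected, and of 30 endothelial surface genes none did. After Isl1, Nkx2-5 (−0.46) and Gata4 (−0.87) had the smallest p of the progenitor markers, and neither passed. The Wnt targets Sp5 and Lef1 stood at 1.23 and 0.41, and neither passed.

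No member passed the test. The moderated limma test of mutant against wild type, adjusted over all 18193 genes, called 12 genes, all higher in mutant cells (0.066% of genes higher and 0% lower), and 0 of the 10 members; the smallest adjusted p among them was 0.14. Over all 45037 probe sets that are not controls it called none, and so none of the 23. At a nominal p under 0.05 (not adjusted) in the same fit, 5 members were higher in mutant cells, Sox17, Sox18, Erg, Ets1 and Ets2, where 6.76% of all genes were. At that level 2 members, Tal1 and Klf2, were lower, where 4.84% of all genes were. Of the 23 probe sets 9 were higher and 2 lower at that level, against 6.1% and 4.66% of all probe sets; probe sets of a gene share its transcripts and are not separate evidence. For the same 5 members every mutant array lay above every wild-type array, as it did for 8.64% of all genes, and for Klf2 alone every mutant array lay below, as for 9.18% of all genes. Over the probe sets this held for 8 upward and 1 downward, against 8.01% and 8.86% of all probe sets. Fewer cells of a type and less RNA per cell cannot be told apart in these bulk samples.

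**Figure D1:**
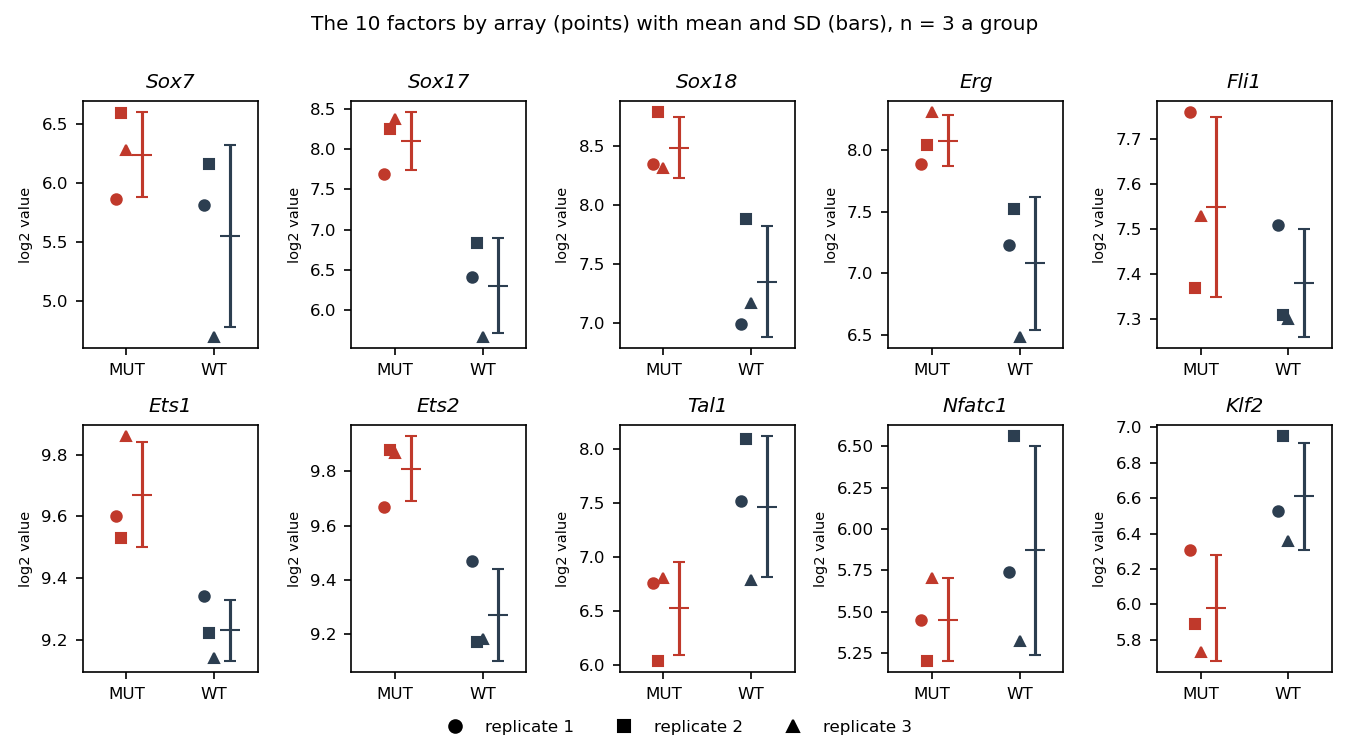
Log2 value of each of the 10 factors (vertical axis, a scale of its own per panel) on the 3 mutant (MUT) and 3 wild-type (WT) arrays; points are arrays, shaped by replicate, and bars give the mean and SD. The points of Sox17, Sox18, Erg, Ets1 and Ets2 lie higher on all mutant arrays, those of Klf2 lower, and those of Sox7, Fli1, Tal1 and Nfatc1 overlap.

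Sox17, a SoxF factor of arteries and of definitive endoderm, had the largest difference of the 10 factors. Its brighter probe set, 1429177_x_at, read 7.69, 8.25 and 8.38 on mutant arrays 1, 2 and 3 and 6.41, 6.83 and 5.66 on wild-type arrays 1, 2 and 3. Every mutant array lay above every wild-type array, and wild-type array 3 was the lowest. The mutant mean was 8.10 ± 0.36 and the wild-type mean 6.30 ± 0.59 (log2, SD, n = 3 each), a difference of 1.80 with an SE of 0.31, or 3.49-fold (adjusted p = 0.14 by limma). A difference this far up held for few genes, since 99.8% of all genes had a lower value. The suffix x marks a probe set that can bind other transcripts too, so its size is less certain. The other Sox17 probe set, 1421657_a_at, read 5.86, 6.36 and 6.40 on the mutant arrays and 5.12, 5.97 and 4.78 on the wild-type arrays. There mutant array 1 lay below wild-type array 2, and the difference was 0.92 (SE 0.31). Markers of endoderm, which also expresses Sox17, had means of 7.94 to 8.42 on the mutant arrays and 7.95 to 8.40 on the wild-type arrays, over 10 genes that went both ways. Shh, a signalling ligand, stood at −1.26 and Foxa1 at −1.07, both lower on every mutant array and at a nominal p under 0.05, while the adhesion gene Epcam stood at 0.48. None of the 10 passed over all genes, and the part of these markers in the Sox17 difference was not tested.

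Sox18, the SoxF factor best known from lymphatic vessels, read 8.35, 8.79 and 8.32 on the mutant arrays and 6.99, 7.88 and 7.17 on the wild-type arrays. The groups did not overlap, and wild-type array 2 came nearest to the mutant arrays. Means were 8.49 ± 0.26 in mutant and 7.35 ± 0.47 in wild-type cells (SD, n = 3 each), a difference of 1.14 with SE 0.25, or 2.20-fold (adjusted p = 0.214).

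Sox7, the third SoxF gene, overlapped between the groups on both of its probe sets. The first, 1416564_at, read 5.86, 6.59 and 6.28 on the mutant arrays and 5.81, 6.16 and 4.69 on the wild-type arrays, where array 3 lay below the background level of 4.85. The difference was 0.69 with a 95% interval of −0.19 to 1.57 (adjusted p = 0.517), and it was 0.26 without wild-type replicate 3. The second, 1432495_at, gave 0.52 with an interval of −0.20 to 1.24. Whether Sox7 differed less than Sox17 and Sox18 was not tested.

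**Figure D2:**
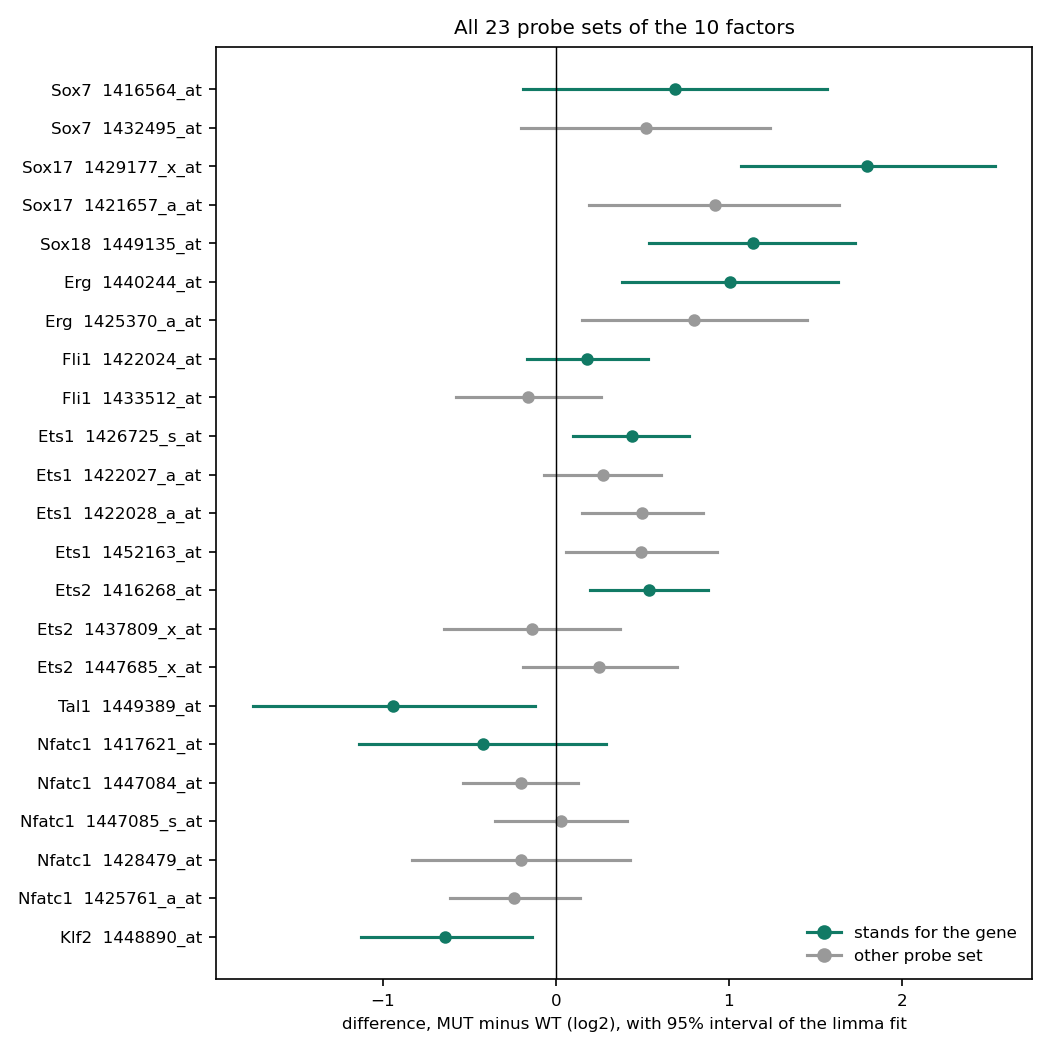
Difference in log2 value, mutant minus wild type, for all 23 probe sets (horizontal axis), with 95% intervals of the limma fit; green marks the probe set with the highest mean, which stands for its gene. Intervals lie above 0 for both Sox17 probe sets (0.92 and 1.80), Sox18, both Erg probe sets, 3 of 4 Ets1 probe sets and 1 of 3 Ets2 probe sets, and below 0 for Tal1 and Klf2.

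The 4 ETS members sit in neighbouring pairs. In the RefSeq annotation no protein-coding gene lies between Fli1 and Ets1 on chromosome 9, nor between Erg and Ets2 on chromosome 16, with 3 non-coding genes between the genes of each pair. Erg, an ETS factor that maintains endothelial junctions, read 7.89, 8.04 and 8.31 on the mutant arrays and 7.23, 7.52 and 6.48 on the wild-type arrays. Every mutant array was above every wild-type array. The difference was 1.01 with SE 0.27, or 2.01-fold (adjusted p = 0.248), and its second probe set, 1425370_a_at, gave 0.80 with groups that did not overlap either. As with Sox17 and Sox7, wild-type array 3 was the lowest for Erg, and without it the Erg difference was 0.71.

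Ets2, known for its activation by MAP kinase signalling in many cell types, read 9.67, 9.88 and 9.87 on the mutant arrays and 9.47, 9.17 and 9.18 on the wild-type arrays with its brightest probe set, 1416268_at. The groups did not overlap, and the difference was 0.54 with SE 0.14, or 1.45-fold (adjusted p = 0.241). Its other probe sets did not show this: 1437809_x_at gave −0.14 with overlapping groups, and 1447685_x_at was below background on all 6 arrays. With the mean over the 3 probe sets Ets2 no longer passed a nominal p of 0.05.

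Ets1, an ETS factor of endothelium that neural crest cells also express, read 9.60, 9.53 and 9.86 on the mutant arrays and 9.34, 9.22 and 9.14 on the wild-type arrays. The groups did not overlap, and the difference was 0.44 with SE 0.14, or 1.35-fold (adjusted p = 0.323). All 4 Ets1 probe sets were higher in mutant cells, from 0.27 to 0.50. The mean of 9 neural crest markers was 8.67 to 9.07 on the mutant arrays and 8.39 to 8.71 on the wild-type arrays, which overlap. None of the 9 passed over all genes and none had a mean at or below background, while 6 had positive and 3 negative differences. At a nominal p under 0.05, 4 were higher (Snai2, Tfap2b, Sox10 and, named after its value was seen, Tfap2a), or 1 with the mean of the Y-linked genes as a covariate. Of all genes 6.76% were higher at that level, or 5.39% with that covariate. The negative markers, named after their values were seen, were Foxd3 at −0.11, Pax3 at −0.15 and Dlx2 at −0.29. Their part in the Ets1 difference was not tested.

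Fli1, the closest relative of Erg and a factor of endothelium and megakaryocytes, read 7.76, 7.37 and 7.53 on the mutant arrays and 7.51, 7.31 and 7.30 on the wild-type arrays. The groups overlapped, with a difference of 0.18 and an interval of −0.16 to 0.52 (adjusted p = 0.654), and the second Fli1 probe set, 1433512_at, gave −0.16. For Fli1 the upper bound of 0.52 lies below the Erg difference of 1.01, but the Erg interval, 0.38 to 1.63, overlaps that of Fli1. The gap between the 2 genes was not itself tested. Leukocytes express Fli1 as well, and the mean of 10 macrophage and leukocyte markers was 5.52 to 6.14 on mutant and 5.97 to 6.23 on wild-type arrays, with 2 of the 10 at or below background on all 6 arrays. Coro1a stood at −0.47, the chemokine receptor gene Cx3cr1 at −0.35 and Fcer1g at −0.33.

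Tal1, Nfatc1 and Klf2 lay on the other side of 0. Tal1, which with Lmo2, Lyl1 and GATA factors drives early blood and endocardial genes, read 6.76, 6.04 and 6.81 on the mutant arrays and 7.52, 8.09 and 6.79 on the wild-type arrays. Wild-type array 3 lay just under mutant array 3, so the groups overlapped on that value alone. The difference was −0.94 with SE 0.35, or 0.523-fold (adjusted p = 0.383), and it was −0.62 without wild-type replicate 2 and −1.27 without wild-type replicate 3. Primitive erythroid cells also express Tal1. The mean of 11 erythroid markers was 9.54, 8.94 and 10.30 on mutant arrays 1, 2 and 3 and 10.32, 10.13 and 9.69 on wild-type arrays 1, 2 and 3, and all 11 had negative differences (median −0.35), none at a nominal p under 0.05. Ank1 stood at −0.95, Epb42 at −0.83 and the erythropoietin receptor gene Epor at −0.49. Mutant array 3 was the highest mutant array for the erythroid mean and for Tal1, and within the wild-type range for both. Without mutant replicate 3, 7 of the 11 markers were lower at a nominal p under 0.05, with a median of −0.75, and 1 was without wild-type replicate 3. In those refits 3.25% and 3.33% of all genes were lower. The part of these markers in the Tal1 difference was not tested.

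The partners of Tal1 went both ways. These were picked after their values were seen, for their known binding to Tal1. Lyl1 averaged 6.41 ± 0.45 in mutant and 6.82 ± 0.25 in wild-type cells (SD, n = 3 each here and below). Gata2 averaged 7.02 ± 0.18 in mutant and 7.28 ± 0.28 in wild-type cells, and Lmo2 9.06 ± 0.31 in mutant and 8.50 ± 0.50 in wild-type cells. All 3 overlapped between the groups, and none passed.

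Klf2 read 6.31, 5.89 and 5.73 on the mutant arrays and 6.53, 6.95 and 6.36 on the wild-type arrays with its only probe set. The groups did not overlap, though mutant array 1 and wild-type array 3 were close. The mutant mean was 5.98 ± 0.30 and the wild-type mean 6.61 ± 0.30 (SD, n = 3 each), a difference of −0.64 with SE 0.21, or 0.644-fold (adjusted p = 0.341). Klf2 is also an early response gene. Of 12 immediate early and stress genes 3 were higher in mutant cells at a nominal p under 0.05 (Egr1 at 0.78 and the heat shock genes Hspa1a at 2.42 and Hspa1b at 1.91). Only 1 was without mutant replicate 3, without wild-type replicate 3 or with the mean of the Y-linked genes as a covariate. Of all genes 6.76% were higher at that level, and 5.03%, 5.82% and 5.39% in those refits. The mean of the 12 was 7.23 to 7.70 on the mutant arrays and 6.62 to 6.92 on the wild-type arrays. A few genes carried that gap: the median difference was 0.14, with 8 positive and 4 negative, and Egr2, named after its value was seen, stood at 2.59 with overlapping groups. The part of these genes in the Klf2 difference was not tested.

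Nfatc1 has 5 probe sets, all dim. The brightest, 1417621_at, read 5.45, 5.20 and 5.70 on the mutant arrays and 5.74, 6.56 and 5.32 on the wild-type arrays. The groups overlapped, and the high value was that of wild-type array 2. The difference was −0.42 with an interval of −1.14 to 0.29 (adjusted p = 0.61), and it was −0.08 without wild-type replicate 2. The other 4 Nfatc1 probe sets gave −0.24 to 0.03, and 1425761_a_at was above background on only 1 of 6 arrays. Other endocardial and cushion genes did not share a direction: of 12, 9 had positive and 3 negative differences (median 0.10). At a nominal p under 0.05, 1 was higher and 3 were lower, where 6.76% and 4.84% of all genes were. The 3 lower genes were Tbx20 at −0.94, Gata5 at −0.61 and Adgrg6 at −1.08, all with known roles in heart development. Adgrg6 was above background on only 4 of 6 arrays. The 1 higher gene was Plxnd1, a semaphorin receptor, at 0.57, named after its value was seen.

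Promoter windows from RefSeq (GRCm38.p6), 250 bases before to 50 after a transcript start, were searched for 4 members, 7 windows in all. Nfatc1 was left out of the search, and no window was at hand for the remaining members. Windows are shown for Erg and Ets2, higher on every mutant array, and for Tal1 and Klf2, which lay lower. Of the Erg and Tal1 starts, the one that held most motif matches was chosen. Capitals mark matches on either strand to 5 motifs. ETS factors were searched as CGGAAG. For SOX factors the letters were ACAAT. GATA factors were represented by AGATAA. The TCF/LEF factors that carry Beta-catenin to DNA were represented by CTTTGA, and MEF2 factors by their consensus of 10 letters.
Erg, chr16:95459299-95459598, minus strand: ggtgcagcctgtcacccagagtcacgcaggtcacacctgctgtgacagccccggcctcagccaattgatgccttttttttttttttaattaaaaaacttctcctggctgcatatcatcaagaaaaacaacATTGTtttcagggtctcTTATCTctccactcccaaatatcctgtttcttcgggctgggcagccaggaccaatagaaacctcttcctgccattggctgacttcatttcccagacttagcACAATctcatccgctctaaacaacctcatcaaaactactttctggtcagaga
Ets2, chr16:95702157-95702456, plus strand: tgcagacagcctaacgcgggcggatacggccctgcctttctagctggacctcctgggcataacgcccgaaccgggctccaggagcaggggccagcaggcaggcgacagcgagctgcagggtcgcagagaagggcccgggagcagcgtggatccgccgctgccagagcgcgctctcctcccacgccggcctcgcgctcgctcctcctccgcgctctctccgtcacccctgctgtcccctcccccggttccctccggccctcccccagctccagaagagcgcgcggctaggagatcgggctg
Tal1, chr4:115056176-115056475, plus strand: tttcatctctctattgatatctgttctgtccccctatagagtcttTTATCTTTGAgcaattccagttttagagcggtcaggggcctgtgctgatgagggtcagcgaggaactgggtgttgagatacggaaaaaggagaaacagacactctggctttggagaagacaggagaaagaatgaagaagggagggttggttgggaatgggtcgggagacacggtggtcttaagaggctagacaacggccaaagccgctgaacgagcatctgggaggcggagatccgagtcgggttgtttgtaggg
Klf2, chr8:72318812-72319111, plus strand: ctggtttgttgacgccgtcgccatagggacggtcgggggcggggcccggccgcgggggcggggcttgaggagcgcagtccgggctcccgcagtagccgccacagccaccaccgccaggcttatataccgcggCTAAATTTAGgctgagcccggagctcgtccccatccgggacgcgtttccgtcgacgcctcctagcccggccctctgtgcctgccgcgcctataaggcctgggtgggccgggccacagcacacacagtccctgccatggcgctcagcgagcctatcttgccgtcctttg
The Erg window held 2 SOX matches and 1 GATA match, and the SOX motif occurs in 31.0% of all 32851 windows. The Tal1 window held a GATA match, found in 11.2% of windows, that overlaps a TCF/LEF match, found in 16.0%. The Klf2 window held a MEF2 match, found in 3.69% of windows, and the Ets2 window none of the 5 motifs. The ETS motif as searched, CGGAAG, was found in 16.9% of all windows and in 0 of the 7 member windows searched. The shorter GGAA core, which the windows shown hold when either strand is read, was not searched. A match describes these letters and is no evidence of binding.

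Most endothelial surface genes had higher means in mutant cells as well. Of 30 measured, 28 had positive differences and none passed over all genes; 10 were higher and 0 lower at a nominal p under 0.05, where 6.76% and 4.84% of all genes were. Flt1, a VEGF receptor, stood at 1.66 (SE 0.32), the adhesion molecule Pecam1 at 1.14 (SE 0.29) and the guidance receptor Robo4 at 1.09 (SE 0.28). Robo4 was above background on only 4 of 6 arrays. The list's median difference was 0.33, against 0.49 for the 10 factors and −0.03 for all genes, and it was 0.13 without wild-type replicate 3. The 10 became 6 without that array or with the mean of the Y-linked genes as a covariate, where 5.82% and 5.39% of all genes were higher. The mean of the 30 genes was 7.52, 7.80 and 7.76 on the mutant arrays and 7.36, 7.52 and 6.86 on the wild-type arrays. Mutant array 1 and wild-type array 2 read alike, so these means did not clearly separate the groups. Wild-type array 3 was lowest here, and it was the lowest wild-type array for every factor but Sox18 and Ets2.

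**Figure D3:**
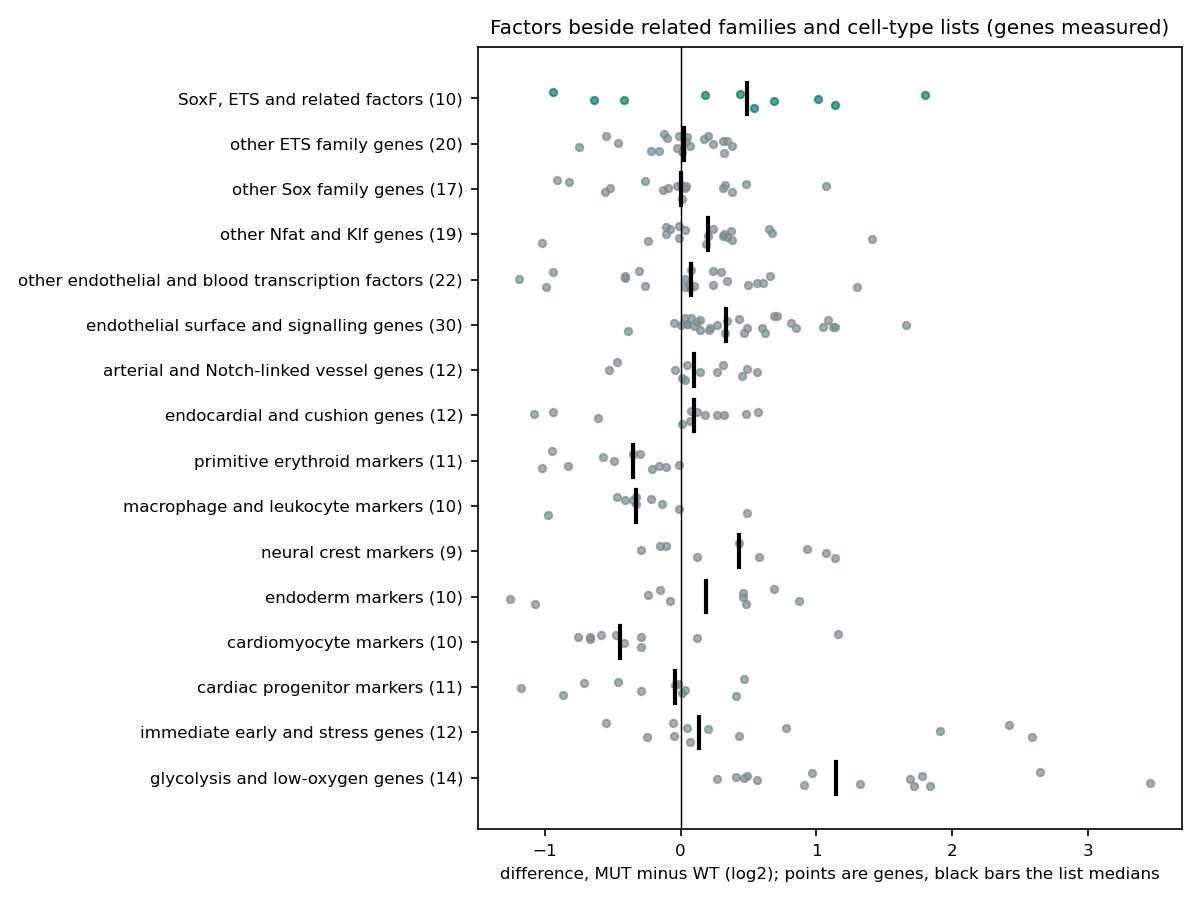
Difference in log2 value, mutant minus wild type (horizontal axis), of each gene in the 10 factors (green) and in related families and cell-type lists (grey), with black bars at the medians. The 10 factors run from −0.94 to 1.80 with a median of 0.49, the other ETS and other Sox genes have medians of 0.02 and 0.00, and the glycolysis and low-oxygen genes have a median of 1.14. All lists were chosen with earlier results of these data known.

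Each factor was therefore also read relative to the mean of those 30 genes on the same array, a measure added after the values were seen. Relative to it, Sox17 was 0.18, 0.44 and 0.62 on the mutant arrays and −0.95, −0.69 and −1.19 on the wild-type arrays, a difference of 1.36. Sox18 differed by 0.69 and Erg by 0.56 on this scale, and for these 3 factors the groups did not overlap. That held upward for 0.632% of all genes, against 8.64% before the subtraction. Subtracting a mean that was higher on average in mutant cells moves genes down, so this low share is partly set by the measure. The 3 factors had been seen to be higher before it was added, and the share among endothelial genes was not computed. The two-sided exact permutation p was 0.1 for each, the smallest that 3 against 3 arrays allow (0.167 adjusted over the 10 factors). The Sox17 difference was 0.67 with Pecam1 alone in place of the list mean, while Sox18 was then at 0.00 and Erg at −0.13. Ets1 and Ets2, at −0.01 and 0.09, did not stand apart from the endothelial mean, with groups that overlapped. Tal1 (−1.38), Klf2 (−1.08) and Nfatc1 (−0.87) were lower on every mutant array on this scale. So were 34.3% of all genes, since the endothelial mean itself was higher on average in mutant cells, and 3 of 10 is near that share.

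**Figure D4:**
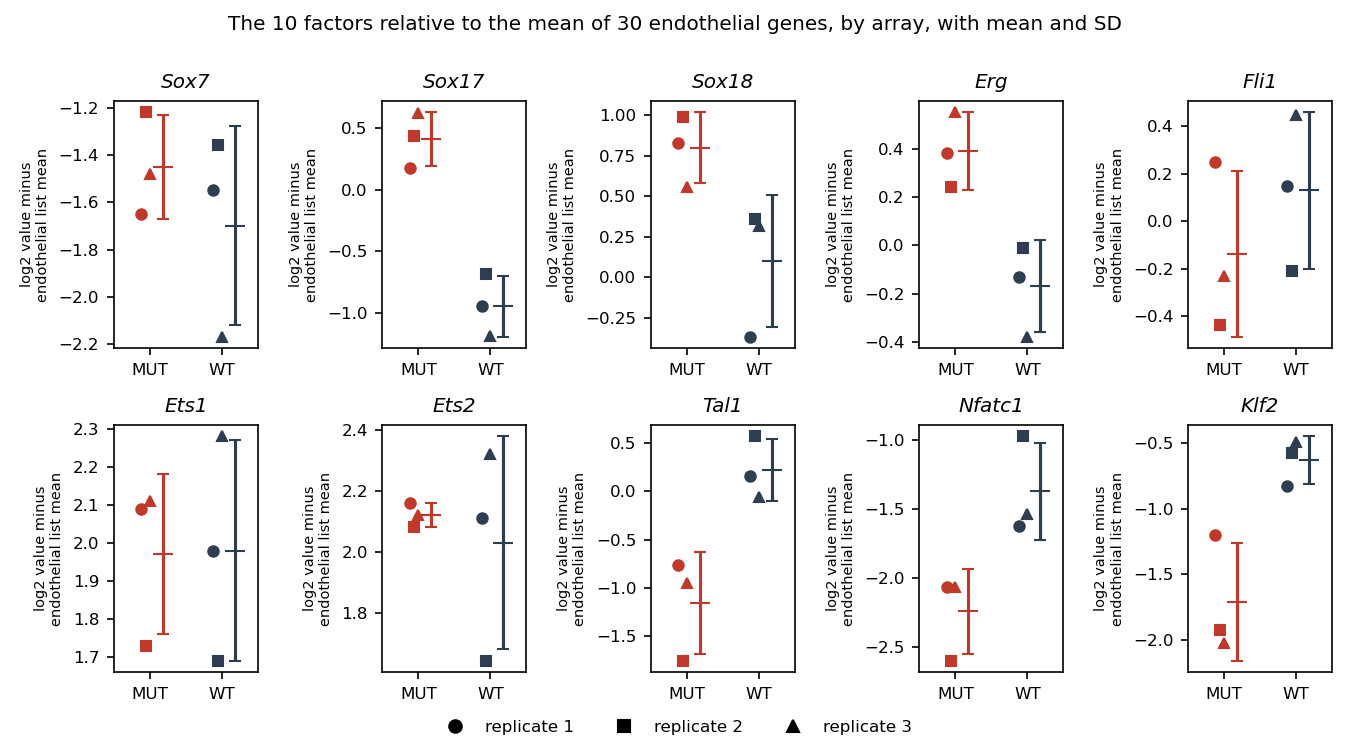
Log2 value of each factor minus the mean of 30 endothelial genes on the same array (vertical axis, a scale of its own per panel), for 3 mutant (MUT) and 3 wild-type (WT) arrays, with mean and SD. Sox17, Sox18 and Erg lie higher on all mutant arrays, with differences of 1.36, 0.69 and 0.56, and Ets1 and Ets2 overlap.

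Among 20 other ETS genes, 11 had positive and 9 negative differences (median 0.02). At a nominal p under 0.05, 1 was higher and 3 lower, where 6.76% and 4.84% of all genes were. The lower ones were Etv2, a factor that starts the endothelial and blood lineages, at 5.20, 5.94 and 5.92 on the mutant arrays and 6.72, 6.39 and 6.19 on the wild-type arrays, and Spib and Elf5, both below background on all arrays. The 1 higher gene was Spic, at 0.38 and below background on all arrays, named after its value was seen. For Etv2 the groups did not overlap, and the difference was −0.75 (SE 0.24, adjusted p = 0.318). Among 17 other Sox genes 9 had positive and 8 negative differences (median 0.00), with Sox10, a neural crest factor, at 1.07, Sox3, a neural factor, at −0.91, and Sox9 at 0.31. Among 22 other endothelial and blood factors, 3 were higher and 3 lower at that level. The hypoxia-inducible factor gene Epas1 stood at 1.30 and the blood factor Myb at −1.19. Gfi1, another blood factor, stood at −0.99 and was below background on every mutant array. The rest, named after their values were seen, were Hey2 at 0.66, Foxc2 at 0.61 and Heyl at −0.94. None of these passed over all genes.

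Glycolysis and low-oxygen genes stood apart between the groups. Of 14 genes, 3 were called higher over all genes: Ndrg1 at 3.46, the phosphofructokinase gene Pfkp at 2.65 and Adm, which encodes the peptide adrenomedullin, at 1.84. The list was written with earlier results of these data known, so these calls are no separate support for it. The probe sets of Ndrg1 and Adm carry the suffix x, as that of Sox17 does. No gene at all was called without mutant replicate 2, mutant replicate 3 or wild-type replicate 2. The mean of the 14 was 11.10 to 11.69 on the mutant arrays and 10.07 to 10.24 on the wild-type arrays. Their part in the differences of Sox17, Sox18, Erg, Ets1 and Ets2 was not tested. With the mean of the Y-linked genes as a covariate, Sox17 and Sox18 alone were higher at a nominal p under 0.05, where 5.39% of all genes were. No member was then lower, where 3.6% of all genes were. That mean was low only on wild-type arrays 2 and 3, so it partly follows the group. All members kept their sign, with larger SEs. Erg was then 0.88 (SE 0.37), Ets1 0.36 (SE 0.19) and Ets2 0.36 (SE 0.16). Tal1 was −0.90 (SE 0.49) and Klf2 −0.54 (SE 0.29).

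Leaving out single arrays kept the sign of all 10 factors. At a nominal p under 0.05, between 4 and 6 factors were higher, where 5.03% to 7.81% of all genes were. Ets1 dropped out without mutant replicate 3 or wild-type replicate 3, and Sox7 came in without wild-type replicate 2. The count of lower factors ran from 0 to 3, where 3.25% to 6.9% of all genes were lower. No factor was lower without mutant replicate 2 or wild-type replicate 2, Tal1 alone without mutant replicate 3, Klf2 alone without wild-type replicate 1, and Tal1, Klf2 and Nfatc1 without wild-type replicate 3. The Sox17 difference ran from 1.49 to 2.07, that of Sox18 from 0.96 to 1.41, that of Ets2 from 0.49 to 0.64 and that of Klf2 from −0.80 to −0.47.

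**Figure D5:**
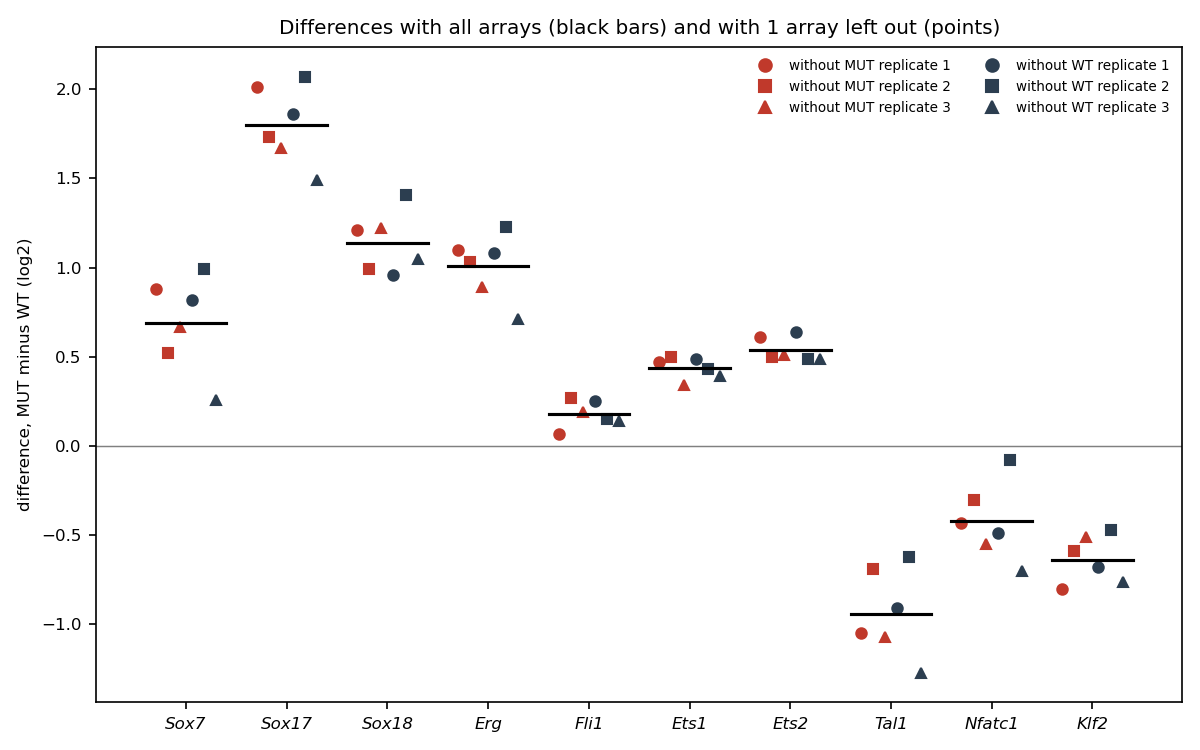
Difference in log2 value, mutant minus wild type (vertical axis), of each factor with all 6 arrays (black bars) and with 1 array left out (points, coloured by the group and shaped by the replicate left out). No point crosses 0; those of Sox7, from 0.26 to 0.99, and of Nfatc1, from −0.70 to −0.08, spread widely for their size.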

How the data were processed

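The authors deposited a table of log2 values, 1 for each of 45101 probe sets on each array; base 2 is inferred from their range (1.89 to 15.07). Per the labels' protocols, RNA was extracted with Trizol, amplified with WT-Ovation Pico and labelled with biotin. How background was corrected and arrays summarised and normalized is not given in the sources used here. Array medians were 6.47 to 6.50, so no scaling was added; a shift of most genes, if aligned away, cannot be seen. The number of arrays limits the precision.

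Of the 34945 probe sets naming 1 gene by GEO's platform annotation, 34741 had symbols updated through RefSeq; 932 naming several genes, 9160 unnamed and 64 controls were left out of the gene fit. The probe set with the highest mean stood for a gene. Background was the 95th percentile of 27 unspiked bacterial control probe sets, 4.85. Groups were compared with limma 3.58.1 in R 4.3.3 (lmFit, eBayes, two-sided, group only, 4 residual and 3.45 prior degrees of freedom), Benjamini-Hochberg adjusted over all genes, or over all 45037 probe sets, at 0.05. Unless said otherwise, differences are mutant minus wild type in log2, with moderated SE, and values are listed for replicates 1, 2 and 3 in order.

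All probe sets of the 10 factors are named, and the 3 genes of smallest p of each list described; Axin2, Sp5, Lef1, Isl1 and Ctnnb1 are checks. Other genes are said to be named or picked after their values were seen. The members, lists and tests were chosen with earlier results of these data known. Alternatives were a replicate block, quantile normalization, median centring, a filter on the dimmest 40% of genes, other probe set choices, a trended robust prior, array weights, a threshold of 0.01, a Y-linked covariate and leaving out each array. The fit was tested on simulated data: over 18193 genes with 200 changed, 74.8% of changes of 1 and 98.7% of changes of 2 (log2) were recovered, with 10.4 false calls on average.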

Additional observations from a re-analysis of the deposited data

How the results depend on the processing

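No member gene was called under the 16 alternatives, and no member probe set under the 14 that apply to probe sets. Several alternatives, such as the stricter threshold and the replicate block, leave the differences as they are. Of the others, the probe set of the largest SD turned 1 sign, giving Fli1 −0.16. Relative to the endothelial genes, Erg was −0.13 with Pecam1 as the comparison gene. The filter on the dimmest 40% left Sox7 and Nfatc1 out. Members higher at a nominal p under 0.05 numbered 5, 2 with the Y-linked covariate, and 4 to 6 with an array left out. Of all genes 6.76% were higher, 5.39% with that covariate, and 5.03% to 7.81% with an array left out. Members lower numbered 2, 0 with that covariate, and 0 to 3 with an array left out. Of all genes 4.84% were lower, 3.6% with that covariate, and 3.25% to 6.9% with an array left out. Over all genes 12 were called higher: 6 with median centring, 1 with the probe set of the largest SD, with the mean over probe sets or with the Y-linked covariate, and 0 at a threshold of 0.01 or with the replicate block. With an array left out, 0 to 81 were called higher and 0 to 11 lower, both highest without mutant replicate 1. The causes were not tested. Same-numbered arrays share only a number: their deviations from the group means correlated at 0.11, −0.08 and −0.02. The replicate block left all 5 higher and 2 lower members at a nominal p under 0.05, where 6.51% and 4.16% of all genes were. With an array left out, the nominal counts ran from 1 to 4 higher for the immediate early and the arterial genes, 0 to 2 for the endocardial, 0 to 4 for the other ETS, 1 to 3 for the other Sox genes and 1 to 5 for the other endothelial and blood factors. Lower counts ran from 1 to 3 for the other ETS and 1 to 4 for the other Sox genes. The simulated recovery does not carry over to these arrays: Sox17 at 1.80, Hspa1a at 2.42 and Egr2 at 2.59 were not called. Nor were genes with less scatter, such as Epas1 at 1.30 (SE 0.19) and Shh at −1.26 (SE 0.20). Dim probe sets, as for Nfatc1, limit precision further.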

Other observations

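The other Nfat and Klf genes, relatives of Nfatc1 and Klf2, mostly lay above 0. Of 19 measured, 12 had positive differences (median 0.20), and none passed over all genes. At a nominal p under 0.05, 6 were higher and 0 lower, where 6.76% and 4.84% of all genes were. The 6 became 3 without mutant replicate 2, mutant replicate 3 or wild-type replicate 2, 4 with the replicate block or without wild-type replicate 1 or 3, and 2 with the mean over probe sets or the Y-linked covariate. Klf9, a factor induced by steroid hormones, read 8.48, 8.98 and 7.69 on the mutant arrays and 7.60, 6.90 and 6.41 on the wild-type arrays, a difference of 1.41 (SE 0.39). Nfatc4 stood at 0.67 (SE 0.18) and Klf15, a factor of metabolism in muscle and heart, at 0.65 (SE 0.13), and neither gene overlapped between the groups.

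Arterial and Notch-linked vessel genes went both ways. Of 12, 3 were higher and 1 lower at a nominal p under 0.05, where 6.76% and 4.84% of all genes were. The median difference was 0.09. The gap junction gene Gja5 was lower, at 5.47, 5.44 and 5.29 on the mutant arrays and 6.06, 5.90 and 5.85 on the wild-type arrays, a difference of −0.53 (SE 0.13). The receptor genes Notch4 and Acvrl1 stood at 0.49 and 0.56, and the receptor gene Nrp1, named after its value was seen, at 0.45.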
